A study of Caenorhabditis elegans with 2 samples.

Results

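Spliceosome protein genes were taken as the protein-coding genes of the WBcel235 annotation whose name starts with snr-, lsm-, prp-, sap- or uaf- followed by a number, and 31 of 19973 nuclear protein-coding genes met this definition. Their promoters were examined for peaks of the zinc-finger protein LIN-13, whose gene belongs to the synMuv B genes, in chromatin immunoprecipitation sequencing of whole L4 larvae of Caenorhabditis elegans. Both replicates came from strain OP49, of mixed sex, whose genotype is unc119(ed3) with the transgene wgIs49, which holds a tagged lin-13 (TY1 EGFP FLAG) and unc119. There was 1 group of 2 biological replicates and no second condition or untagged strain among the samples, so no difference between conditions could be measured. Each library was made from pooled whole animals, so a peak is an average over tissues and sexes. Peak lists hold no expression values, so the labelled stage could not be checked with marker genes. The labels name 2 biological replicates and say no more of their origin.

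The spliceosome removes introns and is built from small nuclear ribonucleoproteins (snRNPs). Sm proteins form a ring on the U1, U2, U4 and U5 snRNAs, and in the nematode also on the spliced leader RNA that is trans-spliced to many mRNAs. Sm-like (LSm) proteins form a related ring on U6 snRNA, while a cytoplasmic ring that contains LSm1 acts in mRNA decay. Proteins named prp, sap and uaf act in the U2 snRNP, in the U4/U6.U5 tri-snRNP, in the recognition of the 3' splice site and in the catalytic steps. The 31 genes were grouped by these roles, and the genes of each group are named with their values.

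A gene was counted as having a LIN-13 summit when the highest point of a peak was at most 500 bp away from the 5' end of any of its protein-coding transcripts. The reproducible list, filtered by the irreproducible discovery rate (IDR), held 2141 peaks, of which 2121 were nuclear. It consisted of the pooled peaks of highest signal value, a measure of enrichment given by the authors' peak caller without a stated scaling. Each longer, relaxed list of a replicate or of the pooled replicates held 30000 peaks. Read depth is unknown. Peaks are therefore given by their signal value and by their rank within a list, rank 1 being the highest. For a gene, both are those of its highest summit within 500 bp of a 5' end in that list. In a replicate this may be a different peak from the IDR peak.

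In total, 12 of the 31 spliceosome protein genes had an IDR summit at a 5' end (38.7%, exact Clopper-Pearson 95% interval 21.8 to 57.8%, counting error only). Among all nuclear protein-coding genes the share was 1397 of 19973 (6.99%). The 12 genes were prp-8, snr-4, prp-40, snr-2, lsm-1, lsm-7, snr-3, snr-1, lsm-3, lsm-6, prp-31 and snr-6, from the highest peak to the lowest. They lay in 4 of the 7 roles. The Sm genes held 5 of 7, the LSm genes 4 of 7, the tri-snRNP genes 2 of 6 and the U1 snRNP genes 1 of 2. None of the 4 U2 snRNP and SF3 genes, the 2 U2AF genes or the 3 genes of the Prp19 complex and the second step had one. Groups this small leave wide intervals: 0 of 4 allows a share of up to 60.2% and 5 of 7 a share from 29 to 96.3%. These intervals treat genes as independent draws and do not cover differences between the replicates. The shares of members and of all genes were set side by side without a test.

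**Figure D1:**
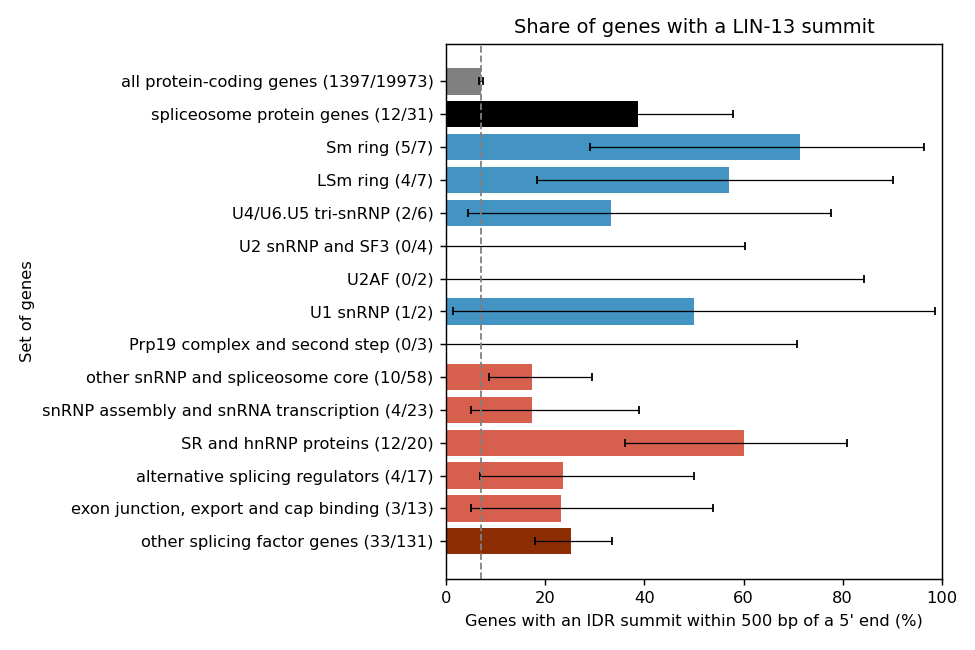
Share of genes, in percent, that had an IDR summit at a 5' end (at most 500 bp away), for all protein-coding genes (grey), the 31 spliceosome protein genes (black), their 7 roles (blue) and 5 lists of other splicing genes with their sum (red and brown). Lines are exact 95% intervals, the dashed line is the 6.99% of all genes, and the Sm group has the highest share of the 7 roles (5 of 7).

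The members' peaks were not among the strongest of the data. Their median rank was 977 and their median signal value 59.0, beside a median rank of 907 and a median signal value of 60.7 over all 1397 genes with an IDR summit. The ranks of the members ran from 252 at prp-8 to 1460 at snr-6. Outside the IDR list the next member was prp-18 at rank 3859, with a signal value of 29.0. The IDR list ended at rank 2141, so by pooled rank no member lay close to its end on either side. In the replicates' own lists, snr-1 (rank 2150 in replicate 1) and snr-5 (rank 2054 in replicate 2) lay near that rank.

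Within 500 bp, the Sm genes gave the highest share of the 7 roles. Within 200 bp they had 0 of 7, against 2 of 7 LSm genes. With summits that reach 1 protein-coding gene only, both groups had 2 of 7. Snr-4, which encodes SmD2, had a peak on chromosome V from 11979998 to 11980087 (ce11) with a signal value of 99.1 (rank 290), and signal values of 53.7 in replicate 1 (rank 318) and 46.5 in replicate 2 (rank 296). Snr-2, which encodes SmB, had a peak on chromosome I from 13338862 to 13339197 with a signal value of 73.9 (rank 591), and 51.3 in replicate 1 (rank 360) and 23.7 in replicate 2 (rank 1384). Snr-3, the SmD1 gene, had one on chromosome II from 6489813 to 6490148 with a signal value of 58.0 (rank 1016), and 29.9 (rank 1398) and 28.6 (rank 931) in replicates 1 and 2. These 3 genes ranked within the highest 2141 peaks of both replicates. Snr-1, the SmD3 gene, had a peak on chromosome IV from 17087487 to 17087822 with a signal value of 56.2 (rank 1100); its rank was 675 in replicate 2 (signal value 33.3) and 2150 in replicate 1 (24.3), just outside the highest 2141. Snr-6, the SmE gene, had a peak on chromosome III from 12429694 to 12430029 with a signal value of 49.2 (rank 1460), and it ranked 535 in replicate 1 (signal value 43.8) but 5432 in replicate 2 (11.8). The snr-6 peak was thus high in replicate 1 only. Both remaining Sm genes had weaker pooled peaks outside the IDR list. Snr-5, the SmF gene, had a signal value of 21 (rank 6834), with ranks of 19944 in replicate 1 and 2054 in replicate 2. Snr-7, the SmG gene, had a signal value of 19.3 (rank 7964), with ranks of 21014 and 7206. Every one of the 7 Sm genes had a pooled relaxed summit at a 5' end.

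Among the LSm genes, lsm-1 belongs to the cytoplasmic decay ring rather than to the U6 snRNP. Its peak on chromosome II from 11126414 to 11126749 had a signal value of 61.7 (rank 880), and 27.2 in replicate 1 (rank 1716) and 38.1 in replicate 2 (rank 504). Lsm-7 had a peak on chromosome IV from 10933094 to 10933429 with a signal value of 60 (rank 938), and 42.2 in replicate 1 (rank 583) and 25.6 in replicate 2 (rank 1191). Both genes, which encode ring subunits, were within the highest 2141 peaks of each replicate. Lsm-6 had a peak on chromosome I from 1701010 to 1701345 with a signal value of 51.5 (rank 1337); it ranked 511 in replicate 2 (signal value 37.8) and 5705 in replicate 1 (15). The peak counted for lsm-3, on chromosome IV from 13388867 to 13389202, had a signal value of 52.4 (rank 1281), with ranks of 1264 and 1555 in replicates 1 and 2. It was not at the main promoter. Its summit lay in an lsm-3 exon, 59 bp downstream of the 5' end of a short annotated transcript and 1832 bp downstream of the outermost 5' end of the gene. With outermost 5' ends only, lsm-3 was not counted and 11 members remained. Lsm-8, whose product marks the nuclear U6 ring, and lsm-5 had pooled ranks of 9650 and 12889. Lsm-4 had a summit in replicate 2 alone, at rank 28263.

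The highest peak of all members was at prp-8, which encodes the large U5 protein at the catalytic centre. It lay on chromosome III from 8164015 to 8164131 with a signal value of 105.0 (rank 252), and 69.2 in replicate 1 (rank 170) and 36.5 in replicate 2 (rank 552). Prp-40, named for a U1 snRNP protein with WW domains, had a peak on the same chromosome from 9521759 to 9522094 with a signal value of 98.1 (rank 303), and 34.8 (rank 972) and 59.6 (rank 154) in replicates 1 and 2. These 2 genes were high in both replicates, but in opposite order. Prp-31, a U4/U6 protein, had a peak on chromosome I from 5127473 to 5127808 with a signal value of 51.1 (rank 1360); it ranked 732 in replicate 2 (signal value 31.9) and 3669 in replicate 1 (18.7). The other tri-snRNP genes were weak or empty. Prp-38 had a pooled rank of 24484, and prp-3, prp-4 and prp-6 had no summit in any list. The same held for prp-39, the other U1 gene, and for prp-17 of the second step, which brings the genes with none to 5.

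The groups without an IDR summit were not devoid of relaxed peaks. In the U2 group, sap-140 had a pooled signal value of 25.4 (rank 4906), prp-9 one of 24.2 (rank 5360) and prp-21 one of 18.1 (rank 8855), while sap-49, an SF3b subunit gene, had a summit in replicate 1 alone (rank 21431). Of the U2AF genes, which encode the dimer that binds the 3' splice site, uaf-2 had a pooled signal value of 20.8 (rank 6954). It ranked 1259 in replicate 2 (signal value 24.8) and 4446 in replicate 1 (17). Uaf-1 stood at rank 17269. Prp-18 was named above, and prp-19 had a relaxed summit at its 5' end in replicate 1 alone (rank 12246). An IDR summit lay 639 bp from the prp-19 5' end, the nearest of any uncounted member, while the farthest counted summit was 394 bp away, at snr-1. The next gene upstream of prp-19, K10D2.5 on the opposite strand, had an IDR summit 36 bp upstream of its own 5' end.

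**Figure D2:**
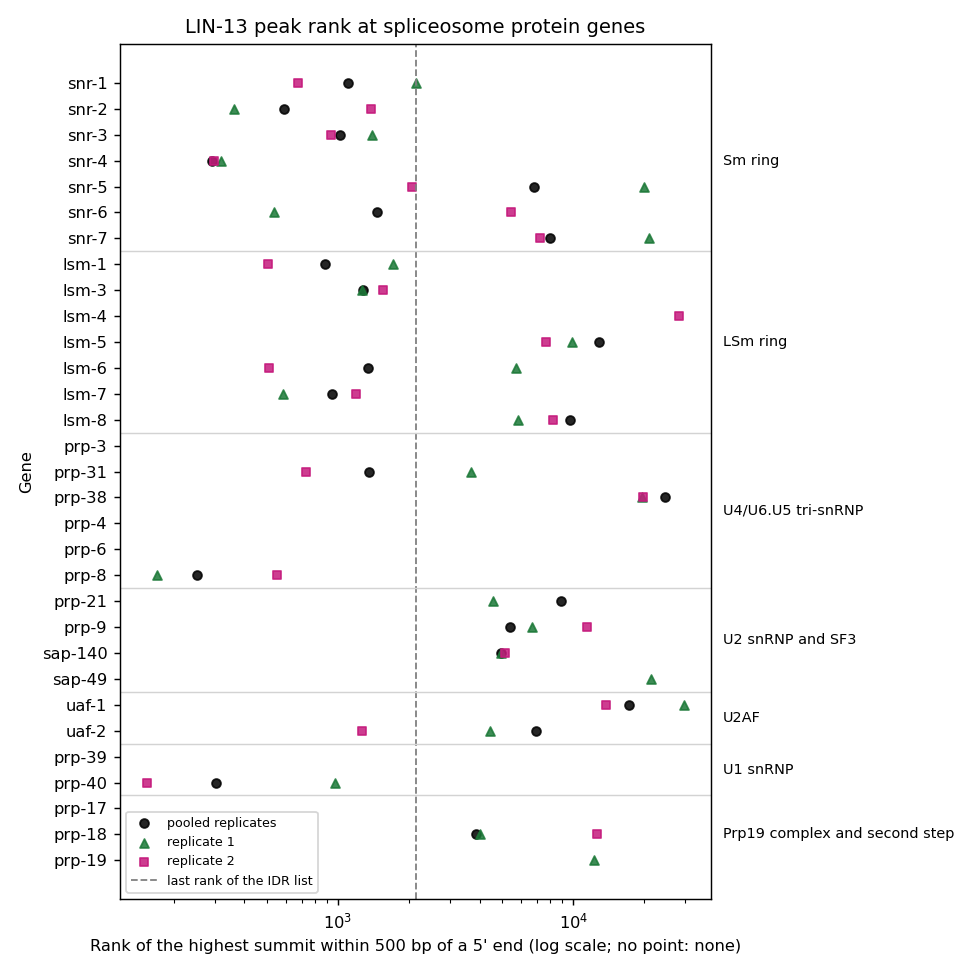
Rank of the highest summit within 500 bp of a 5' end of each of the 31 genes (log axis), in the pooled list (circles), replicate 1 (triangles) and replicate 2 (squares), grouped by role. The dashed line is rank 2141, the end of the IDR list. The 12 genes with an IDR summit have circles left of it, and among them lsm-6, prp-31, snr-1 and snr-6 have replicates on opposite sides.

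In all, 23 of the 31 members had a pooled relaxed summit at a 5' end (74.2%, against 39% of all genes). Among genes with such a summit, 12 of 23 members had an IDR summit (52.2%), against 17.9% of all. In the highest 2141 peaks of replicate 1 there were summits at 9 members (29%, against 6.92% of all genes), and in those of replicate 2 at 13 (41.9%, against 6.66%). Replicate 1 lacked lsm-6, prp-31 and snr-1, and replicate 2 lacked snr-6 but held snr-5 and uaf-2. Of the 12 members, 8 (66.7%) were within the highest 2141 peaks of both replicates, close to the 64.6% of all genes with an IDR summit. Without replicate 1 the count of members was 13 and without replicate 2 it was 9.

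**Figure D3:**
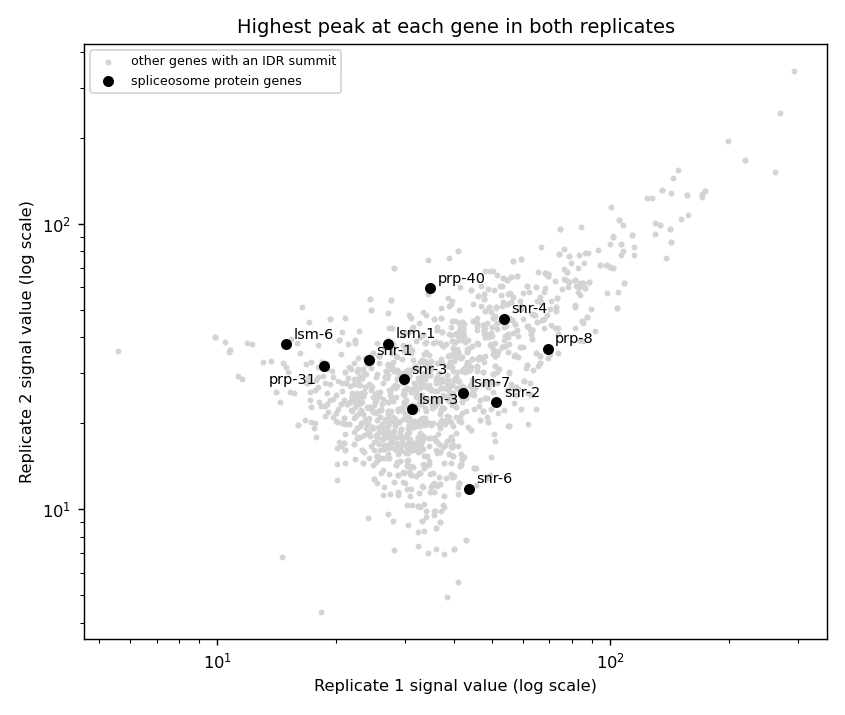
Signal value of the highest peak at each gene in replicate 1 (x axis) and replicate 2 (y axis), both on log axes, for the 12 spliceosome protein genes (black, named) and the other genes with an IDR summit that had a relaxed summit in both replicates (grey). Snr-4 and prp-8 are high in both, snr-6 is low in replicate 2 and lsm-6 is low in replicate 1.

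Summits lay upstream of the gene in 11 of the 12 members (91.7%), as in 90.7% of all genes with an IDR summit. The exception was lsm-3. The median distance to the 5' end was 236.5 bp for members and 206 bp for all. The 5 Sm genes were the farthest group: their summits lay from 220 bp (snr-3) to 394 bp (snr-1) upstream, with a median of 337 bp. Within 200 bp of a 5' end only 4 members had a summit (12.9%, against 3.43% of all genes), namely prp-40 at 148 bp, lsm-6 at 183 bp, prp-31 at 187 bp and lsm-3. Many nematode mRNAs have their first part replaced by a spliced leader, so that an annotated 5' end may not be where transcription starts.

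**Figure D4:**
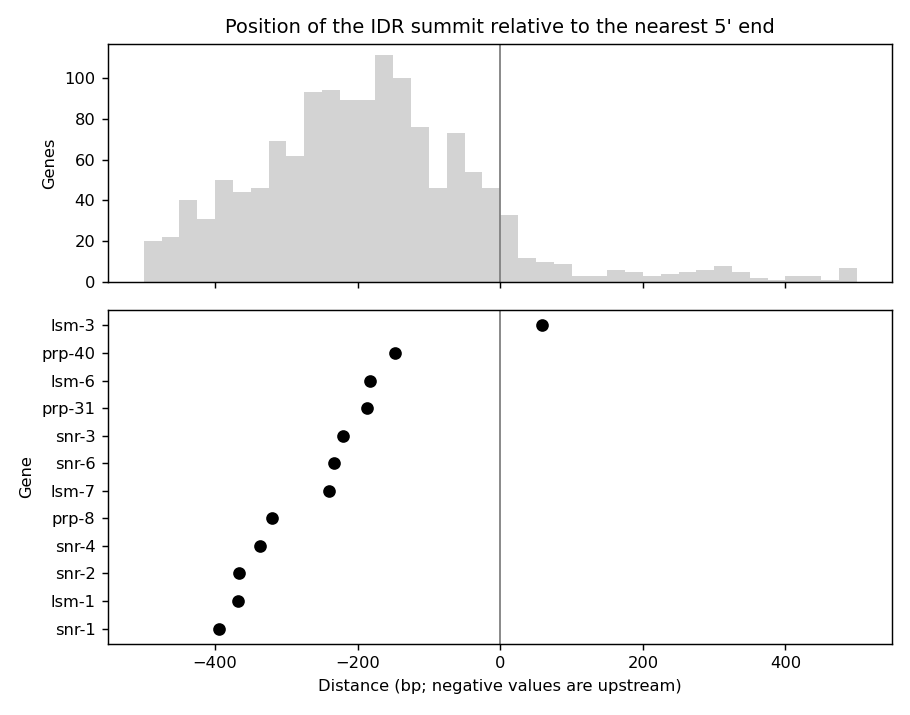
Distance in bp from the IDR summit to the nearest 5' end, negative upstream. The upper panel is a histogram over the genes with an IDR summit and a relaxed summit in both replicates, and the lower panel shows the 12 spliceosome protein genes. All but lsm-3 lie upstream, from 148 bp at prp-40 to 394 bp at snr-1.

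The next protein-coding gene upstream was on the opposite strand at 9 of the 12 members (75%). This was close to the 67.6% of all genes with an IDR summit. At 7 of the 12 members the same summit was within 500 bp of the 5' end of another protein-coding gene. The share was 58.3%, against 42.5% of all genes with an IDR summit. In all 7 that gene was divergent, which was not counted over all genes. Snr-3 shared its summit with rsp-5, an SR splicing factor gene, at 220 bp from snr-3 and 184 bp from rsp-5. The lsm-1 summit was nearer to rps-9, a ribosomal protein gene (220 bp), than to lsm-1 (368 bp). Likewise, the summits of snr-1, snr-2 and lsm-7 were nearer to snx-13 (217 bp), W08E3.4 (99 bp) and dnc-1, a dynactin gene (59 bp). Those of prp-31 and prp-40 were nearer to the member than to mat-1, an anaphase-promoting complex gene (440 bp), and clu-1 (467 bp). A peak cannot be assigned to 1 of 2 divergent genes from these data. Summits that reached 1 protein-coding gene only were at 5 members (16.1%, against 4.07% of all genes): prp-8, snr-4, lsm-3, lsm-6 and snr-6.

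The snr-4 summit, although single by that count, fell in a non-coding gene. It lay in an exon of the ncRNA gene C52E4.14, 101 bp from its 5' end, and 58 bp upstream of the snRNA gene T11F9.15, both on the strand opposite to snr-4. It was the only member summit within 500 bp of the 5' end of a non-coding gene. Of the 166 stretches of 36 bp in the 201 bp around the snr-4 summit, 154 occurred once in the genome, whereas all 166 did so at each of the other 11 members. How reads from repeated stretches were placed is unstated in the labels, and their part in the snr-4 peak was not tested.

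The base sequence around the summits was read from the WBcel235 genome. Windows of 201 bp were centred on the summit, and 5 motifs of 6 or 7 letters were looked for on both strands. None of the 12 member windows held GAGAGAG, against 15.2% of the 1131 windows around all IDR summits at protein-coding 5' ends, and 1 held the shorter GAGAG, which lies within GAGAGAG (8.33%, against 51.3%). GGGCGG and CACGTG were also in 0 of the 12, against 11.8% and 5.13%. GCGGGAA, the core of an E2F-like site, was in 1 window, that of snr-1 (8.33%, against 5.84%). TTTGAA, the common form of the cell cycle homology region (CHR) to which the MuvB subunit LIN-54 binds in DREAM, was in 7 (58.3%, against 39.5%). Median GC content was 41.5% in members and 42.3% in all. These are counts of letters and not of binding sites, and no test was made.

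The hexamer TTCGAA, which differs from TTTGAA in 1 letter and reads the same on both strands, was chosen after values were seen, by comparing all words of 5 and 6 letters in the member windows with the others. Its share in the members is therefore a description of how it was picked. It was in 9 of the 12 member windows (75%), against 14.8% of the 1131 promoter summit windows. The 3 without it were lsm-1, lsm-6 and prp-40. In the 32 other summit windows of the splicing genes described below, it was in 15 (46.9%). Windows of the same length centred 236 bp upstream of the outermost 5' end held it in 3 of the 19 members without an IDR summit (15.8%) and in 12.5% of all protein-coding genes. TTTGAA was in 46.9% of the 32 other splicing gene windows, in 7 of the 19 upstream windows of members without an IDR summit (36.8%) and in 50.6% of those of all protein-coding genes. TTCGAA or TTTGAA was in 11 of the 12 member windows (91.7%), against 47.5% of all promoter summit windows and 68.8% of the 32 other splicing gene windows. The shares were 42.1% of the 19 upstream windows and 56.7% of the upstream windows of all protein-coding genes. The member share for either word includes the picked TTCGAA, so it too describes how that word was chosen.

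Windows of 4 members below show where TTCGAA and TTTGAA, the latter looked for on both strands, lie around the summit (capitals), and that of prp-40 is shown as the member with neither. Each is written 5' to 3' on the strand of the member, has the summit at its centre, and is a stretch of the WBcel235 reference genome (RefSeq) outside annotated UTRs. The positions are chrIV:17087555-17087755 (plus strand), chrII:6489881-6490081 (minus), chrV:11979960-11980160 (minus), chrIII:8163953-8164153 (plus) and chrIII:9521827-9522027 (plus).
snr-1: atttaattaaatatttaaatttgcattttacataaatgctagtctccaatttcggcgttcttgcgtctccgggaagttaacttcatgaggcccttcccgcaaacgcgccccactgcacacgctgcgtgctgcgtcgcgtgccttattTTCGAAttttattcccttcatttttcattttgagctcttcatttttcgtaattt
snr-3: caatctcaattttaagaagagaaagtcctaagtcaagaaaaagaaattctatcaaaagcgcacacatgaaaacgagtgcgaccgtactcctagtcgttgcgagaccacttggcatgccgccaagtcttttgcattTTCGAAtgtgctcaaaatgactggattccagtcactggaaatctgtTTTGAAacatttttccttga
snr-4: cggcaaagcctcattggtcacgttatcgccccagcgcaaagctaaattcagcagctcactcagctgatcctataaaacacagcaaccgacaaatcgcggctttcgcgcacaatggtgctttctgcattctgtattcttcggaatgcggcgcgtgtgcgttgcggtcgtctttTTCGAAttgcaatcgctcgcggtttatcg
prp-8: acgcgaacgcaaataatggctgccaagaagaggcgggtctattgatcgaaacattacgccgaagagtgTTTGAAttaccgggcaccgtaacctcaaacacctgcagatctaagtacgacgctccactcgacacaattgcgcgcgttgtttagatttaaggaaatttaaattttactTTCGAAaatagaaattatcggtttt
prp-40: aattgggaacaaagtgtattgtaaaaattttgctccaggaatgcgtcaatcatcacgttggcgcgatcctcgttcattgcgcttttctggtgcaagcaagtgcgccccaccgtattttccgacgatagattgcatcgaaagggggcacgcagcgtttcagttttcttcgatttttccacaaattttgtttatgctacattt

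Each of the first 4 windows held TTCGAA at 1 place, on the side of the summit that faces the member. It started 35 bp from the summit in snr-3, 47 bp in snr-1, 72 bp in snr-4 and 76 bp in prp-8. The window of lsm-7, not printed, held it at 2 places on the same side (20 and 59 bp from the summit), while in lsm-3 it lay on the other side, at −98 bp. TTTGAA was at 1 place in snr-3 and prp-8, and on neither strand in the windows of snr-1 and snr-4. Because TTCGAA was picked from the member windows, these places only describe it. Its side was not compared with that in other promoter windows. The summits of snr-1 and snr-3 also had a divergent gene on their other side.

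Of the 19 members without an IDR summit of their own, 6 were close behind another gene on the same strand (31.6%, against 20.8% of all genes without one). A gene was called part of a run when the next protein-coding gene upstream was on the same strand and ended at most 500 bp away or overlapped it, as genes of nematode operons do; operons themselves were not annotated in the files used. This count was made after seeing the members' positions. In total, 8 members were in such runs: lsm-3, lsm-5, lsm-6, lsm-8, prp-3, prp-38, prp-39 and sap-49. The first gene of the run had at its 5' end an IDR summit in 6 of the 8 (75%), against 14.5% of all genes in runs. Of the 6 members in runs without a summit of their own, 4 had one at the first gene (66.7%, against 13.8% of all such genes). The lsm-6 run began with ubc-3, a ubiquitin-conjugating enzyme gene (signal value 81.6, rank 463), and the lsm-3 run with Y62E10A.23 (105.2, rank 249). The 4 others were lsm-8 behind sqd-1, which is named for an hnRNP gene of the fly (signal value 114.1, rank 200), prp-39 behind hmgs-1 (115.8, rank 190), prp-38 behind plrg-1 (97.9, rank 304) and prp-3 behind smrd-1 (41.1, rank 2059). Plrg-1 encodes a subunit of the Prp19 complex. Lsm-5 behind acs-2 and sap-49 behind ubh-4 had none. The summit at the first gene of a run may also be shared with another gene. Y62E10A.23, hmgs-1 and smrd-1 had the same replicate signal values as Y62E10A.20, F25B4.4 and enu-3.1, in that order. With the summit at the first gene of a run counted too, 16 of 31 members had one (51.6%), against 9.67% of all genes.

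Other genes of pre-mRNA processing were counted from 5 lists compiled from textbook roles, in which 131 of 148 symbols matched a protein-coding gene. In these lists 33 of 131 genes had an IDR summit (25.2%, exact 95% interval 18 to 33.5%), against 6.99% of all genes. SR and hnRNP proteins bind exons and introns and guide splice site choice. Their list, which also held the SR protein kinase gene spk-1, had 12 of 20 (60%): rsp-2, spk-1, hrpu-2, hrpa-1, rsp-6, rsp-7, hrpk-1, rsp-5, hrpu-1, hrpf-2, hrpf-1 and rsp-3. Other snRNP and spliceosome core genes had 10 of 58 (17.2%): syf-2, plrg-1, smu-1, usp-39, sna-3, mog-4, ddx-15, snrp-40.1, rnp-2 and ddx-23. SnRNP assembly and snRNA transcription genes had 4 of 23 (17.4%): ints-4, ints-5, prmt-5 and snpc-3.4. Alternative splicing regulators had 4 of 17 (23.5%), among them tiar-1, rbm-25 and grld-1. Genes of the exon junction, export and cap binding had 3 of 13 (23.1%): hel-1, aly-2 and acin-1. High peaks were at syf-2, a core splicing factor gene (signal value 229.8, rank 40), ints-4, an Integrator subunit gene (197.1, rank 57), rsp-2, an SR protein gene (134.7, rank 133), and plrg-1. The first 3 of these ranked above every one of the 31 spliceosome protein genes. The syf-2 summit was also within 500 bp of the 5' end of K04G7.1, and it lay nearer to K04G7.1 than to syf-2. That peak therefore cannot be assigned to syf-2 alone.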

How the data were processed

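Peak lists from 2 replicates of 1 group were used, on build ce11. Per the deposited listings, relaxed lists were called against a control library, per replicate and on both replicates pooled, and the IDR list was derived from them. The aligner, peak caller and thresholds were not given in the sources used here. Signal values were deposited by the authors with no stated scaling, and were used within a list or by rank. The summit offset was the authors' too. The −log10 q-value column, which holds 1 value throughout the IDR list, and the ce10 lists were not used.

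Summits were set against 5' ends of protein-coding transcripts in the Ensembl annotation (WBcel235, release 115), within 500 bp, mitochondrial genes left out. Coordinates count from 1. Sheared fragments were 150 to 350 bp, per the labels. The members and lists were chosen with earlier results of these data known. Every member with an IDR summit is named with its values, the others by role, and every other splicing gene with an IDR summit, with values for the 5 highest, except 1 gene and 1 sequence that are not reported here. With 1 group, no test between samples was possible, and no list was tested. Genes share summits and are not independent. The counting step was tested on simulated data. Counts were made in Python 3.11.15 with pandas 2.3.3 and NumPy 2.4.6, intervals in SciPy 1.17.1, and figures in matplotlib 3.10.9.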

Additional observations from a re-analysis of the deposited data

How the results depend on the processing

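No paired analysis was possible because both libraries belong to a single group. The count of 12 members with an IDR summit was 7 in the 1070 highest IDR peaks (22.6%, against 3.95% of all genes), 4 within 200 bp and 5 with summits that reach 1 gene only. It was 9 to 13 with 1 replicate alone, 13 in the 4282 highest pooled peaks (against 12.2% of all genes), 13 within 1000 bp (41.9%, against 9.13%), 11 with outermost 5' ends (35.5%, against 6.59%) and 12 with peak overlap (38.7%, against 7.8%). Restricting the count to genes with a relaxed summit was added after seeing the data. The 33 other splicing genes became 19 in the 1070 highest (14.5%, against 3.95% of all genes) and 51 in the 4282 highest pooled peaks (38.9%, against 12.2%). They became 17 within 200 bp (13%, against 3.43%) and 18 with summits that reach 1 gene only (13.7%, against 4.07%). The count was 30 without replicate 1 (22.9%, against 6.66%) and 34 without replicate 2 (26%, against 6.92%). The 8 of 12 members high in both replicates became 3 of 12 with 1070 peaks per replicate (25%, against 37.6% of all genes with an IDR summit). They became 10 of 12 with 4282 peaks per replicate (83.3%, against 89.7%). The count was 2 of 4 within 200 bp (50%, against 58.1%) and 9 of 13 within 1000 bp (69.2%, against 65.7%). Of these other settings, only 1000 bp gave a share above that of all genes. GAGAG in place of GAGAGAG was in 1 member window in place of 0. The median rank of 977 was 1118 in the list of replicate 1, against 950 for all genes with an IDR summit. In the list of replicate 2 it was 703.5, against 983, so the order of members and all genes differed between replicates. The causes of these shifts were not tested. What read depth does to the lists was not measured, since no file gives it.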

Other observations

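The rsp-7 peak (signal value 71.8, rank 625) was shared with snu-13, which encodes a protein of the U4 snRNP and of snoRNPs. The sna-3 peak (signal value 72.2, rank 620), of a spliced leader snRNP gene, was shared with the ribosomal protein gene rps-3. These 2 were chosen after their values were seen. In all, 15 of the 33 other splicing genes with an IDR summit shared it with another protein-coding gene (45.5%), against 42.5% of all genes with an IDR summit.

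Replicates differed widely at some of the lower peaks. At ddx-23, a tri-snRNP helicase gene, the highest summit ranked 646 in replicate 1 and 19827 in replicate 2. That at hrpf-2 ranked 806 and 6050, and that at snrp-40.1, a U5 snRNP gene, 5593 and 819. By contrast, syf-2 (ranks 32 and 55), ints-4 (59 and 60), rsp-2 (155 and 128) and plrg-1 (315 and 276) stood close in both.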
